A study of Oryza sativa Japonica Group with 12 samples.

Results

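The DREB1 and DREB2 proteins are transcription factors of the AP2/ERF class that bind the dehydration-responsive element in the promoters of stress genes. Of 38978 rows in the deposited count table, 8 were taken by their locus IDs, and all 8 are present. They comprise 6 DREB1 genes, namely DREB1A (Os09g0522200), DREB1B (Os09g0522000), DREB1C (Os06g0127100), DREB1F (Os01g0968800), DREB1G (Os02g0677300) and DREB1H (Os09g0522100), and 2 DREB2 genes, DREB2A (Os01g0165000) and DREB2B (Os05g0346200). In rice and in Arabidopsis the DREB1 genes, also called CBF, are best known as fast and short-lived responders to cold, and their products switch on genes that protect cells from freezing and water loss. The DREB2 genes are better known for responses to drought, salt and heat, and rice DREB2B is alternatively spliced into forms of which not all encode the full protein. Counts per gene, as used here, do not separate those forms.

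The names are those that came with the list of IDs, since the count table carries IDs alone. The RefSeq gene table (assembly ASM3414082v1) holds each of the 8 names once, and its chromosome equals the one in the ID for all 8. In that table DREB1B, DREB1H and DREB1A follow each other on chromosome 9 with 0 genes between them, whereas DREB1C lies on chromosome 6, DREB1G on chromosome 2, DREB1F and DREB2A on chromosome 1 and DREB2B on chromosome 5. Such neighbouring copies can be alike in sequence, and how reads that match several copies were counted is not given in the sources used here. The split between the copies on chromosome 9 is therefore uncertain.

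The libraries came from field-grown rice leaves (japonica cultivar Nipponbare) taken at 10 in the morning, with 3 groups of 4 replicates. WT is the unmodified cultivar, while Line7 and Line8 are homozygous transgenic lines 7 and 8 that express an artificial microRNA against YGL1 from the 35S promoter, which is active in most plant tissues. YGL1 is the chlorophyll synthase gene, and the series title asks whether less chlorophyll could let a crop photosynthesise more per unit of nitrogen. Each transgenic group is 1 line and no group carries a control construct, so effects of the microRNA, of the insertion and of transformation cannot be told apart. The labels mention more than 1 season and site, as well as a greenhouse, and tie no library to a season. Whether the replicates are different plants is not stated, so the p-values speak only of the spread among these libraries, which may be technical. In whole leaves, fewer cells of a type and less RNA per cell cannot be told apart.

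Library totals ranged from 14746933 to 19822636 counts. Os05g0349700, the ID set down from general knowledge as that of the microRNA's target and not named by the files, was at 44.2 to 69.1 CPM (counts scaled to a common library total) in WT, at 23.8 to 33.4 CPM in Line8, and at 27.4 to 34.4 CPM in Line7 except in replicate 2, which held 68.1 CPM. Across genes, the library labelled Line7 replicate 2 had a mean Spearman correlation of 0.977 with WT libraries and 0.925 with its own group. It thus went against its label. The main edgeR tests of the DREB2 genes in Line7, and the lowest permutation p of the DREB1 genes, are given with and without it. Some other values are given with it only. The 6 IDs set down as leaf photosynthesis genes together held 20730 to 55205 CPM per library, as a rough check of the tissue. The highest was Os11g0707000, set down as Rubisco activase, at 15328 to 44304 CPM. The IDs set down as Rubisco small subunit held 66.6 to 837 CPM each, so the sum rests largely on few of these unchecked IDs.

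DREB1 transcripts were at or near the limit of detection in 11 of the 12 libraries. All 6 DREB1 genes together gave 0, 21, 13 and 10 counts in WT replicates 1 to 4, and 5, 14, 4 and 10 counts in Line8 replicates 1 to 4. Line7 replicates 1, 2 and 4 gave 3, 25 and 16 counts. Line7 replicate 3 alone gave 314 counts, or 72.2% of the 435 DREB1 counts of the whole table (95% exact Clopper-Pearson interval 67.7 to 76.3%, counting error only), while it holds 7.94% of all counts. No DREB1 gene was abundant enough to pass the filter on low counts, so none entered the fit across genes.

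**Figure D1:**
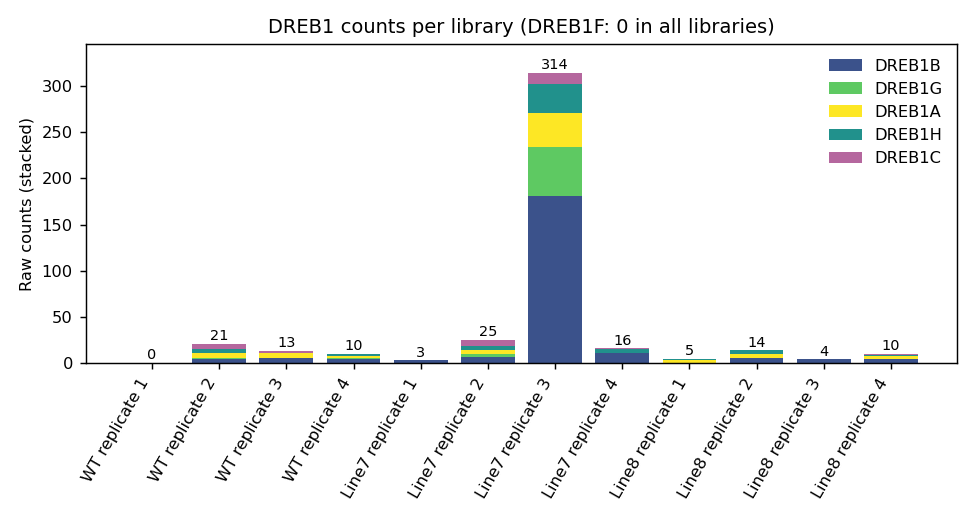
Raw counts of the DREB1 genes (vertical axis, stacked by gene) in each of the 12 libraries (horizontal axis), with the sum above each bar. Line7 replicate 3 reaches 314 counts, and the other 11 libraries hold 0 to 25.

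DREB1B, a cold-inducible member in rice, was the most counted. It held 0, 5, 6 and 5 counts in WT replicates 1 to 4, 0, 6, 4 and 4 in Line8, and 3, 7, 181 and 11 in Line7. The 181 counts in Line7 replicate 3 correspond to 11.4 CPM, 15.0 times the next highest library, Line7 replicate 4 at 0.760 CPM. Line7 replicate 1 lay within the WT range, and replicates 2 and 4 lay above its highest value of 0.368 CPM. So did Line8 replicate 2, at 0.415 CPM. Outside Line7 replicate 3, these higher values rest on 6 to 11 counts, against 6 in the highest WT library.

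DREB1A, whose overexpression is known to raise tolerance to cold and drought in rice, held 0, 5, 5 and 2 counts in WT and 3, 4, 0 and 4 in Line8. In Line7 it held 0, 4, 37 and 0 counts. DREB1H, the copy between DREB1B and DREB1A, held 0, 4, 0 and 2 counts in WT, 2, 4, 0 and 1 in Line8, and 0, 5, 31 and 4 in Line7. In replicate 3 of Line7 these copies stood at 7.58 times (DREB1A) and 6.96 times (DREB1H) the CPM of the next highest library. The 3 neighbours on chromosome 9 were thus high in the same library and low in the others.

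DREB1G, on another chromosome, had 1 count in each of WT replicates 2 and 4, none in any Line8 library, and 0, 3, 53 and 0 counts in Line7. Line7 replicate 3 held 91.4% of its 58 counts (95% exact interval 81.0 to 97.1%), a larger share than for the other DREB1 genes with counts, and 19.8 times the CPM of the next highest library. DREB1C, known in rice as a factor whose overexpression raises photosynthesis and nitrogen use, held 0, 6, 2 and 0 counts in WT, 0, 0, 0 and 1 in Line8, and 0, 6, 12 and 1 in Line7. Its level in Line7 replicate 3 was 2.24 times that of the next highest library, the smallest such ratio among the 5 DREB1 genes with counts. DREB1F had no count in any library. With a floor of 3 counts over a group, that leaves DREB1F room for up to 0.0444 CPM in WT, up to 0.0470 CPM in Line7 and up to 0.0464 CPM in Line8.

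Few rows of the table behaved as these genes did. After the DREB1 values were seen, a measure was set at 30 counts or more and at least 5 times the CPM of every other library. In Line7 replicate 3, 16841 of 38978 rows had enough counts for it, and 6 met it. Of these 6 rows, 4 were DREB1B, DREB1A, DREB1G and DREB1H, the last just above the cut at 31 counts. The remaining rows were Os01g0699600 (47 counts, next highest 4) and Os08g0211750 (33 counts, next highest 6), which no table used here names. In each of the other 11 libraries 0 to 3 rows met that measure, and none was one of the 8 genes. With at least 10 counts and 2 times every other library, Line7 replicate 3 had 66 rows, among them all 5 DREB1 genes with counts, while Line8 replicate 3 had 223 such rows and none of the 8 genes. Line7 replicate 3 had an average Spearman correlation of 0.956 with its own group, against 0.961 and 0.966 for Line7 replicates 1 and 4. These averages include the library labelled Line7 replicate 2. With WT libraries the average was 0.902 for Line7 replicate 3, against 0.911 and 0.933 for replicates 1 and 4. Line7 replicate 3 did not stand apart in the DREB2 genes described below. Conditions at sampling are not recorded per library, and their part in the high DREB1 counts was not tested.

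The comparisons of DREB1 genes in Line7 included Line7 replicate 3, except where it was left out. In exact two-sided permutation tests of log2(CPM + 0.5), over 15 comparisons of 5 genes, the lowest p was 0.143 (DREB1C, Line8 against Line7), and for Line7 against WT the lowest was 0.200 (DREB1B and DREB1H). Without the library labelled Line7 replicate 2 the lowest p over the 10 comparisons with Line7 was 0.114 (DREB1B), and without Line7 replicate 3 it was 0.257 (DREB1C, Line8 against Line7). The smallest p that 4 against 4, or 3 against 4, libraries allow is 0.0286. When edgeR was run without the filter on all 12 libraries, DREB1B had a log2 fold change of 3.70 (SE 1.22) in Line7 against WT. Its unadjusted p was 0.00913 and its adjusted p 0.102. In Line8 against Line7 it was -3.81 (SE 1.24, unadjusted p 0.00839, adjusted p 0.268). Unadjusted p was also below 0.05 for DREB1G in both comparisons, for DREB1H in Line7 against WT and for DREB1C in Line8 against Line7. No DREB1 gene passed 0.05 after adjustment in any comparison. All these edgeR values come from a fit that includes Line7 replicate 3, and no unfiltered fit without it is given. Without Line7 replicate 3 the summed DREB1 counts were 44 over 3 Line7 libraries, 44 over 4 WT libraries and 33 over 4 Line8 libraries. Per library, the summed DREB1 level averaged 0.8999 CPM in Line7 replicates 1, 2 and 4, 0.6397 CPM in WT and 0.5263 CPM in Line8. These Line7 libraries ran from 0.192 CPM to 1.40 CPM, the latter in the one labelled replicate 2. They overlapped with WT, at 0 to 1.14 CPM, and the difference in summed level was not tested.

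DREB2B was the most abundant of the 8 genes in counts, and it fell in Line8. Its level was 51.4, 50.0, 58.6 and 54.6 CPM in WT replicates 1 to 4 (861 to 954 counts). In Line8 it was 31.2, 42.8, 32.7 and 35.2 CPM (522 to 619 counts). Every Line8 library lay below every WT library, as did those of 14.9% of the 20217 rows tested. The means were 53.6 ± 3.83 CPM in WT and 35.5 ± 5.13 CPM in Line8 (SD, n = 4), and edgeR's quasi-likelihood test gave a log2 fold change of -0.60 (SE 0.156, Benjamini-Hochberg adjusted p = 0.0147), or 0.661 times WT (95% interval 0.524 to 0.835). The exact two-sided permutation p was 0.0286, the smallest that 4 against 4 libraries allow.

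DREB2B was the only one of the 2 DREB genes tested that was called in Line8 against WT. Over all tested rows edgeR called 27.3% in that comparison, 11.8% as lower and 15.5% as higher, so a call for a single gene was common there. With upper-quartile scaling 46.3% of the calls in that comparison were higher, against 56.8% with the TMM scaling used. By p-value DREB2B ranked 2835 among the 5524 rows called. Relative to the median of all rows, which was -0.07, its log2 change was -0.53. The call was lost without WT replicate 3 (log2 fold change -0.53, edgeR adjusted p = 0.0640) and without Line8 replicate 1 (-0.49, edgeR adjusted p = 0.0511).

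In Line7, DREB2B was at 37.1, 54.7, 42.1 and 41.5 CPM in replicates 1 to 4. Replicates 1, 3 and 4 lay below every WT library, and replicate 2 lay within the WT range, so the groups overlapped. The mean was 43.8 ± 7.58 CPM (SD, n = 4), with a log2 fold change against WT of -0.29 (SE 0.155, 95% interval -0.63 to 0.05, exact permutation p = 0.114, edgeR adjusted p = 0.250), and it missed the threshold. Without replicate 2 the log2 fold change was -0.42 (SE 0.143, edgeR adjusted p = 0.0504), still short of it. The exact permutation p without replicate 2 was 0.0286, the smallest that 3 against 4 libraries allow and not adjusted over rows. Without replicate 1 the log2 fold change was -0.19 (edgeR adjusted p = 0.585). When replicate 2 was left out, 19.6% of the 20217 rows had all remaining Line7 libraries below all WT libraries, and 25.2% of the rows tested were called. With all 4 Line7 libraries edgeR called 6.97% of rows in Line7 against WT and 0 of the 2 DREB2 genes. Both had unadjusted p-values above 0.05, where 26.9% of all rows were below it, and neither DESeq2 nor limma-voom called them.

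**Figure D2:**
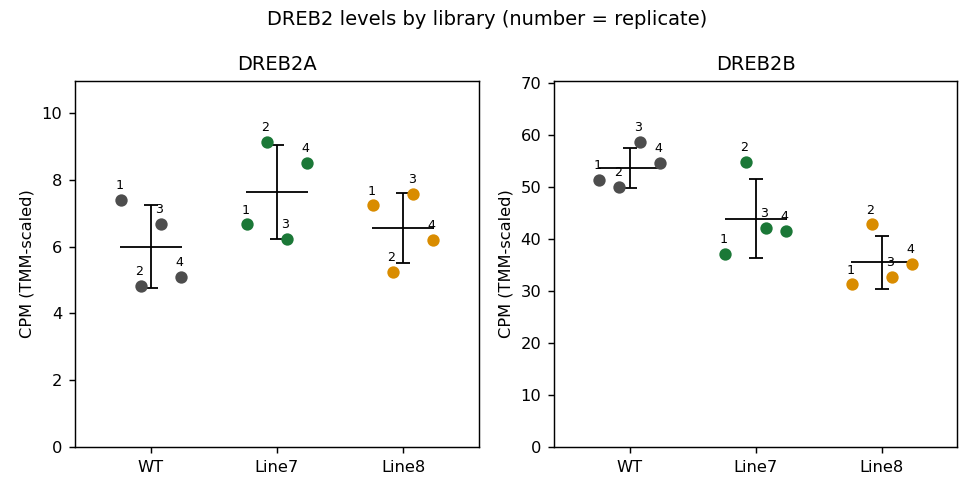
Normalised level (vertical axis, CPM after TMM scaling) of DREB2A and DREB2B in each library (points, numbered by replicate) of WT, Line7 and Line8, with the mean and SD of each group (horizontal and vertical bars). All 4 Line8 libraries of DREB2B lie below the lowest WT library at 50.0 CPM, the library labelled Line7 replicate 2 lies among the WT libraries, and the groups overlap for DREB2A.

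The lines themselves did not differ in DREB2B past the threshold. Line8 against Line7 gave a log2 fold change of -0.31 (SE 0.156, 95% interval -0.64 to 0.03, edgeR adjusted p = 0.340, exact permutation p = 0.114). Without the library labelled Line7 replicate 2 it was -0.18 (SE 0.142, edgeR adjusted p = 0.608). Over all rows edgeR called 0.0247% in that comparison. It called 0 of the 2 DREB2 genes, and DESeq2 and limma-voom also called 0. The unadjusted p was above 0.05 for both, while 16.2% of all rows were below it. The comparisons of each line with WT share the WT libraries, so their values are not independent.

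**Figure D3:**
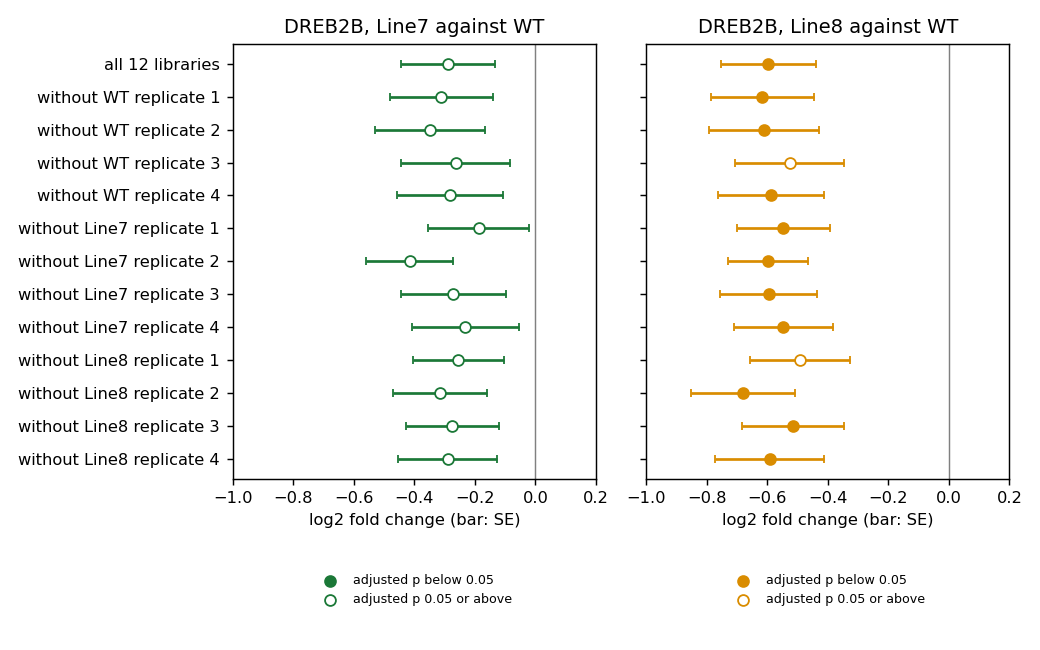
Log2 fold change of DREB2B (horizontal axis, bars are the SE) against WT in Line7 (left) and Line8 (right), with all 12 libraries and with each library left out in turn (rows). Filled points have an adjusted p below 0.05: in Line8 the values run from -0.68 to -0.49 and 2 omissions end the call, and in Line7 they run from -0.42 to -0.19 with no call.

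DREB2A gave 76 to 163 counts per library, well below DREB2B in counts. No length is available in the files, so levels per transcript length were not compared. It was at 7.40, 4.82, 6.69 and 5.10 CPM in WT replicates 1 to 4, at 6.67, 9.14, 6.23 and 8.50 CPM in Line7, and at 7.24, 5.25, 7.58 and 6.20 CPM in Line8. The groups overlapped in each comparison, and the highest value of all was in the library labelled Line7 replicate 2. The log2 fold change was 0.35 in Line7 against WT (SE 0.220, 95% interval -0.13 to 0.82, edgeR adjusted p = 0.331) and 0.13 in Line8 against WT (SE 0.221, 95% interval -0.35 to 0.61, edgeR adjusted p = 0.686). Between the lines it was -0.22 (SE 0.220, 95% interval -0.69 to 0.26, edgeR adjusted p = 0.620). Without the library labelled Line7 replicate 2 the Line7 value was 0.25 (edgeR adjusted p = 0.472) and that between the lines -0.12 (edgeR adjusted p = 0.852). Other single libraries also moved these small values. The value between the lines was -0.08 without Line8 replicate 2. That of Line8 against WT was 0.06 without WT replicate 2 or 4, and 0.25 without WT replicate 1 or Line8 replicate 2. None of these passed the threshold. The intervals with all libraries span 0.915 to 1.77 times WT in Line7 and 0.787 to 1.52 times WT in Line8.

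Both DREB2 genes varied less among replicates than most rows, though rows of like level were not compared. By mean CPM, 79.6% of tested rows lay below DREB2B and 36.7% below DREB2A. Within groups, the SD of log2(CPM + 0.5) was 0.187 for DREB2B and 0.250 for DREB2A, against a median of 0.365 over all tested rows, and 9.63% and 23.7% of rows had a smaller SD. After group means were removed, their deviations had a Pearson correlation of 0.06 over the 12 libraries, and of -0.32 over 11 without the library labelled Line7 replicate 2, given as a description. The number of DREB2B counts per DREB2A count, a ratio formed after the values were seen and free of any library scaling, was 6.94, 10.4, 8.75 and 10.7 in WT, 5.56, 5.99, 6.77 and 4.88 in Line7, and 4.31, 8.14, 4.31 and 5.67 in Line8. All 4 Line7 libraries, replicate 2 included, lay below every WT library in this ratio, and 3 of 4 Line8 libraries did. The gap in Line7 was narrow, from 6.77 to the lowest WT value of 6.94. How often other pairs of rows separate in this way was not counted, and the ratio was not tested, so no Line7 effect is read from it. In the library labelled Line7 replicate 2 the low ratio went with the highest DREB2A level and a DREB2B level in the WT range. In the other Line7 libraries it went with DREB2B below the WT range, and in replicate 4 also with DREB2A at 8.50 CPM, above the highest WT value of 7.40 CPM.

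DREB2B and the target's ID Os05g0349700 separated the same libraries. For each, 7 of the 8 libraries of the lines lay below every WT library, and the exception was the library labelled Line7 replicate 2 for both. The same pattern was found in 7.74% of the 20217 tested rows, so it is not particular to this pair. That library was at 54.7 CPM for DREB2B and 68.1 CPM for Os05g0349700. As the libraries fall into these clusters, no correlation is given, and whether the level of the target bears on DREB2B was not tested.

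**Figure D4:**
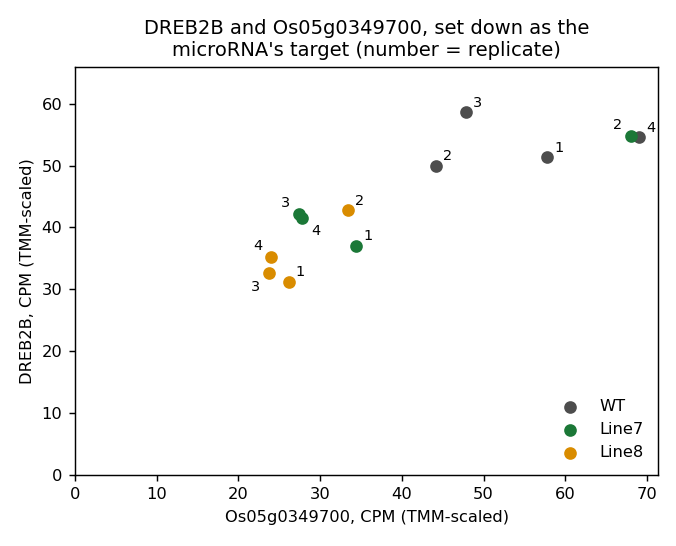
Level of DREB2B (vertical axis, CPM) against that of Os05g0349700 (horizontal axis, CPM) in the 12 libraries, coloured by group and numbered by replicate. The 4 WT libraries and the library labelled Line7 replicate 2 lie at 50.0 to 58.6 CPM of DREB2B, and the other 7 libraries lie at 31.2 to 42.8 CPM.

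The rows most like DREB2B, by the correlation of deviations from group means over 12 libraries, were Os06g0714600 (r = 0.949) and Os06g0665500 (r = 0.949), which no table used here names, and 21 rows exceeded 0.9. Over 11 libraries, without the one labelled Line7 replicate 2, r was 0.913 and 0.902. These are descriptions, and the points share their libraries. Os06g0665500 was at 284 to 336 CPM in WT and 99.8 to 226 CPM in Line8. In Line7 it was at 115, 130 and 145 CPM in replicates 1, 3 and 4 and at 301 CPM in replicate 2. Os06g0714600 was at 2.11 to 3.50 CPM in WT and 0.538 to 1.80 CPM in Line8. In Line7 it was at 1.15, 1.70 and 2.14 CPM in replicates 1, 3 and 4, the last within the WT range, and at 3.98 CPM in replicate 2, above every WT library. Both fell in Line8 (log2 fold change -1.03 for Os06g0665500 and -1.35 for Os06g0714600, edgeR adjusted p = 0.0314 and 0.0395). Neither passed the threshold in Line7 (edgeR adjusted p = 0.125 and 0.664). For DREB1 no such rows are given, because no DREB1 gene passed the filter.

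In lists of genes around the DREB factors, calls went in both directions. These lists are locus IDs set down from general knowledge, which the files do not pair with names, so the counts hold only as far as the IDs are right. Over all tested rows, 15.5% were called higher and 11.8% lower in Line8 against WT, and 5.92% higher and 1.05% lower in Line7 against WT. Without the library labelled Line7 replicate 2 the shares in Line7 were 14.9% higher and 10.2% lower. Of 6 IDs for further DREB genes, 3 were tested, and 1 was lower in Line8. In Line7 edgeR called 0 of these, with 0 at an unadjusted p below 0.05, and 1 as lower without replicate 2. Of 4 IDs for genes upstream of DREB1, 3 were tested and 1 was lower in each line against WT (median log2 fold change -0.32 in Line7 and -0.31 in Line8), or 2 in Line7 without replicate 2. Of 13 IDs for cold and drought response genes that DREB factors are known to act on or accompany, 8 were tested. In Line8, 2 of the 8 were higher and 4 lower, with log2 fold changes from -2.43 to 3.84 and a median of -0.64, against -0.07 over all rows. In Line7, 1 was higher and 1 lower, with a median of 0.13 against -0.01 over all rows, and without replicate 2 the counts were 2 and 2. Of 6 IDs for heat response genes, 4 were tested, with 1 higher in Line8 (median 0.39). In Line7 edgeR called 0 of them, with 0 at an unadjusted p below 0.05 (median -0.03). Line7 replicate 3, the library with high DREB1 counts, held the highest level of 1 of the 8 cold and drought genes, and of 8.92% of all tested rows. In Line8 against Line7 edgeR called none of the IDs tested in these lists, with 3 of the cold and drought genes and 1 of the heat genes at an unadjusted p below 0.05.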

How the data were processed

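The authors deposited whole-number counts per annotated row and library, in 12 columns that each match 1 sample's description. Leaf RNA was extracted with Trizol, per the labels' protocols. No aligner, counter, build or strand setting is given in the sources used here, so reads of overlapping, antisense and near-identical genes may be mixed.

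The analysis used edgeR 4.0.16 (R 4.3.3). The steps were filterByExpr on group, TMM scaling, and a robust quasi-likelihood fit of 3 groups over all 12 libraries, with Benjamini-Hochberg adjustment over all 20217 tested rows and a threshold of 0.05. CPM values are counts scaled by TMM-adjusted totals, also computed for rows below the filter. The floor set for a count of 0, 3 counts, equals 0.163 to 0.207 CPM per library. Intervals of counts and floors cover counting error only. Intervals of fold changes use the SE and the degrees of freedom of the fit. Single genes were also compared by exact permutation over 70 splits.

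Alternatives were RLE and upper-quartile size factors, no filter and a stricter one (at least 1 CPM in 4 libraries), DESeq2 1.42.0, limma-voom (limma 3.58.1), the compared libraries only, the replicate number as a block, and each library left out. A fit without Line7 replicates 2 and 3 was added after the data were seen, as were permutation tests and correlations without 1 of these libraries. No pair of libraries was alike within sampling noise (chi-square per degree of freedom at least 13.6 over 66 pairs).

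Genes named are the 8 members, the target's ID, the 2 rows most like the most abundant tested member of each subfamily, and 2 rows chosen after their values were seen. The members and lists were chosen with earlier results of these data known. Sequences of the genes were not used here.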

Additional observations from a re-analysis of the deposited data

Results flagged for a closer look

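In 4 DREB1 genes, 1 library of Line7, replicate 3, stood far from the other 3 libraries of its group. DREB1A was at 2.33 CPM, DREB1B at 11.4 CPM, DREB1G at 3.33 CPM and DREB1H at 1.95 CPM there, and the gap to the next library was 0.856 to 0.950 of the range of the group, above Dixon's critical value of 0.829 for 4 samples. DREB1C was at 0.0602 CPM in Line8 replicate 4, which is 1 count where the other Line8 libraries had 0. Of 20 groups of 4 libraries with any counts, 5 stood out in this way, and chance flags about 1 in 20 where values are normally distributed. That rate does not hold for counts of 0 to a few, where 1 count beside 0 in the other libraries always stands out, as for DREB1C. The 4 values in Line7 replicate 3 come from the same library and are not independent.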

How the results depend on the processing

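DREB2B kept its direction in all 3 comparisons, and DREB2A in all 3, under each of 21 alternatives. DREB2B was called in Line8 in 19 of 21. Alternatives that left out only Line7 libraries remove no library of that comparison, and act on it only through the shared filter, scaling and spread. Leaving out single libraries gave 0 to 1 DREB genes called in Line8, with 0 without WT replicate 3 or Line8 replicate 1. The adjusted p of DREB2B in Line8 ran from 0.00341 to 0.0640, and in Line7 from 0.0504 to 0.585. With upper-quartile scaling the median of all rows in Line8 shifted by -0.115 on the log2 scale and DREB2B went to -0.71, which relative to that median remains -0.53.

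Over all rows, calls in Line7 against WT numbered 1409, and 3024 with DESeq2, 22 with limma-voom, 587 with the compared libraries only, 7 to 5156 with single libraries left out, and 3036 without Line7 replicates 2 and 3. The cause was not tested. In Line8 against Line7 they numbered 5, and 474, 2, 1, 0 to 7 and 1 in the same order. In Line8 against WT they numbered 5524, and 3443 to 6494 with single libraries left out, the lowest without WT replicate 3. With the replicate block the calls numbered 475 in Line7 and 0 between the lines, and DREB2B in Line8 had a log2 fold change of -0.61 (adjusted p = 0.0210). Same-numbered libraries deviated together in 5 of 12 pairs (correlation over 0.1, range -0.41 to 0.36). With no reference for these values, they do not settle whether the numbers pair the samples. DREB1 counts of 0 to 25 per library, in all but Line7 replicate 3, limit what can be seen there.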

Other observations

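The make-up of the DREB1 counts in Line7 replicate 3 was unlike that of the other 11 libraries combined, which held 121 DREB1 counts. DREB1B made up 57.6% of the DREB1 counts in Line7 replicate 3 and 42.1% in the others, and DREB1G 16.9% against 4.13%. DREB1A made up 11.8% against 22.3%, DREB1H 9.87% against 18.2%, and DREB1C 3.82% against 13.2%. The shares of the other libraries rest on 5 to 51 counts per gene, pooled over 3 groups, and the difference was not tested.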
